A study of Mus musculus with 9 samples.

Results

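The microRNA genes on the array were represented by 305 probe sets, chosen because the probe table gave them a single gene symbol that starts with Mir and a digit or with Mirlet7. They stood for 300 genes among the 28350 probe sets of the array, and 298 of them were named for a hairpin precursor. The other 7 were named for long host transcripts, namely Mir17hg, Mir100hg, Mir670hg and 4 probe sets of Mir99ahg. A further 61 probe sets named a microRNA together with another gene and were kept out of the tests.

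RNA came from mouse yolk sacs at embryonic day 9.5, on a mixed background written mixed (SV 129/C57BL/6) in the labels. They were homozygous Rnh1 knockouts (KO, 3 samples), heterozygotes (HET, 3 samples) and wild types (WT, 3 samples), with 1 array per sample. The protein made from Rnh1 sits in the cytosol and blocks ribonucleases of the secreted kind. The sources used here do not give the deleted part of the gene, or say whether a sample held 1 yolk sac or several, so p-values measure only the spread between these samples.

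A microRNA is first transcribed as part of a long primary transcript, which may be a gene of its own or the intron of another gene. Drosha and Dgcr8 cut out the hairpin in the nucleus, Xpo5 exports it, and Dicer1 trims it to a short duplex, from which 1 strand enters an Argonaute protein and pairs with messenger RNAs mainly through its seed. In the yolk sac and early blood, microRNAs are known for roles in endothelium, in red cell maturation and in the pace of cell division. The probe sets match the precursor, and the array cannot separate primary transcript, hairpin or, where the probes overlap it, mature strand, so mature microRNA levels were not measured.

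The sequences that carry the main results come from the RefSeq annotation of GRCm38.p6, in which all 305 symbols were found and 260 probe sets had a hairpin entry. The first set gives 1 mature strand each of 5 hairpins that were higher in KO than in WT yolk sacs, with the seed (bases 2 to 8) in capitals.
miR-92b-3p (Mir92b, chr3:89227126-89227147, minus strand): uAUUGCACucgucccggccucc
miR-423-5p (Mir423, chr11:77078122-77078144, minus strand): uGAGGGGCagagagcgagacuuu
let-7e-5p (Mirlet7e, chr17:17830366-17830387, plus strand): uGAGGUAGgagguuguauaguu
miR-15a-5p (Mir15a, chr14:61632075-61632096, minus strand): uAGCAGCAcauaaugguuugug
miR-7a-5p (Mir7-1, chr13:58392841-58392863, minus strand): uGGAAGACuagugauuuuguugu

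The second set gives mature strands of the Mir17 cluster, which lie within 1 short stretch of chromosome 14 on the plus strand. The host transcript and 4 of these 5 hairpins passed as higher in KO than in WT yolk sacs, as given below. Mir20a differed in the same direction without passing. The capitals again mark the seed, which miR-17 shares with miR-20a, and miR-19a with miR-19b.
miR-17-5p (chr14:115043684-115043706): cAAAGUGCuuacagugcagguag
miR-18a-5p (chr14:115043867-115043889): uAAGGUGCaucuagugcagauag
miR-19a-3p (chr14:115044048-115044070): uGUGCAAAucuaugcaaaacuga
miR-20a-5p (chr14:115044183-115044205): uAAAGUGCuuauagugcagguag
miR-19b-3p (chr14:115044358-115044380): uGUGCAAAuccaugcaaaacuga

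The third set gives 4 hairpins of the imprinted Dlk1-Dio3 domain on chromosome 12, plus strand, that were higher in KO than in WT yolk sacs. Capitals mark the mature strands within each hairpin.
Mir673 (chr12:109571990-109572080): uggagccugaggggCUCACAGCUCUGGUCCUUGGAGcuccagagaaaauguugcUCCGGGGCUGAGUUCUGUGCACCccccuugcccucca
Mir337 (chr12:109585789-109585885): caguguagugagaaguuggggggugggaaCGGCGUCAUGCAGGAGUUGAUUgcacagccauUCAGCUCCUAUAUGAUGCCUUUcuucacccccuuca
Mir665 (chr12:109586314-109586407): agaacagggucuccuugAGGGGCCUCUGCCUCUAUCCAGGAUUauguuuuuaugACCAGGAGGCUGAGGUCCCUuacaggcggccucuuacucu
Mir341 (chr12:109611500-109611595): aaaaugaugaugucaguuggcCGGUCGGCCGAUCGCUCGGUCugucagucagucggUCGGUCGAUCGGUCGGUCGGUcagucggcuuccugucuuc

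Values are log2 signals, with array medians from 7.07 to 7.20 over all probe sets. Rnh1 itself read 6.28, 6.78 and 6.87 in KO, 9.75, 9.75 and 9.77 in HET, and 10.39, 10.42 and 10.32 in WT yolk sacs, in the order of the labels. Xist, which marks female cells, lay between 11.05 and 11.67 on the KO arrays, at 5.15, 10.56 and 5.76 on HET 1, 2 and 3, and at 5.69, 10.65 and 11.00 on WT 1, 2 and 3. Y-linked Eif2s3y read 7.62, 7.27 and 4.41 in KO, 8.68, 7.87 and 8.48 in HET, and 8.81, 8.15 and 4.34 in WT yolk sacs, so KO 1, KO 2, HET 2 and WT 2 were high for both. Among the cell type markers, 5 of 5 measured erythroid genes were lower in KO than in WT yolk sacs, against 14.6% of all tested probe sets, with mean levels of 9.87 to 10.43 in KO, 10.67 to 11.02 in HET and 10.77 to 10.98 in WT. Of the 3 macrophage genes above the filter, 2 were lower in KO, Mrc1 (-1.29 ± 0.25 SE, limma adjusted p = 0.00858) and Csf1r (-0.39 ± 0.09, adjusted p = 0.0161), and the 4 measured ones averaged 6.72 to 6.92 in KO, 7.14 to 7.25 in HET and 7.14 to 7.22 in WT. The 4 measured trophoblast genes averaged 7.45 to 9.89 in KO, 7.11 to 7.70 in HET and 7.40 to 7.95 in WT yolk sacs, highest on KO 3, and 0 of the 3 above the filter passed. The defining yolk sac markers were present, with visceral endoderm genes averaging 12.38 to 12.53 in KO, 12.56 to 12.72 in HET and 12.61 to 12.70 in WT. Of these 6, Afp was lower in KO than in WT (-0.33 ± 0.06, limma adjusted p = 0.00846) and 5 did not pass. In endothelium, Egfl7 was higher (0.52 ± 0.07, adjusted p = 0.00232), Tek lower (-0.30 ± 0.08, adjusted p = 0.0271) and 4 did not pass. In extraembryonic mesoderm, Hand1 was higher (0.75 ± 0.10, adjusted p = 0.00206), Postn lower (-0.35 ± 0.08, adjusted p = 0.0159) and 3 did not pass. Among smooth muscle genes, Actg2 was lower (-0.43 ± 0.12, adjusted p = 0.0321) and 3 did not pass. Decidual Prl8a2 read 10.40, 9.76 and 11.34 in KO, 6.50, 9.75 and 7.18 in HET, and 9.40, 8.90 and 10.72 in WT. It was higher in KO than in HET (2.69 ± 0.81, adjusted p = 0.0461), and 0 of 3 decidual genes passed against WT. Embryo gene Sox2, below the filter, read 5.65, 5.62 and 7.46 in KO, and 5.43 to 5.56 in both HET and WT. No listed marker was at 0. In whole tissue, fewer cells of a type and less RNA per cell cannot be told apart, and the part of cell composition in the results below was not tested.

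Most microRNA probe sets were dim. To be tested, a probe set had to lie above the 40th percentile of its array (6.35 to 6.57) on at least 3 of the 9 arrays, and 84 of the 305 did, comprising 82 hairpin and 2 host transcript probe sets. The 221 that did not made up 72.5% of the microRNA probe sets, against 33.1% of the other probe sets with 1 gene symbol. Of all 305, 211 lay above the percentile on 0 arrays and 63 on all 9. Just inside the filter, Mir494, Mir300, Mir17hg, Mir693 and Mir505 passed on exactly 3 arrays, with means of 6.07 to 6.50, and just outside it Mir152 and Mir539 reached it on 2, with means of 6.21 and 6.37. Mir505 and Mir17hg passed through the KO arrays alone, so their place among the tested probe sets depended on the difference, and counts are given without the filter too.

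By signal, which across probe sets also depends on the probes, the highest microRNA probe set was Mir692-1, with a mean of 10.32 over the 9 arrays. It was followed by Mir341 (9.15), Mir139 (8.98), Mir346 (8.94), Mir134 (8.92), Mir328 (8.86), Mir210 (8.81), Mir667 (8.76), Mir320 (8.39) and Mir598 (8.36). Mir210 is known as a target of hypoxia-inducible factor, Mir139 lies in an intron of Pde2a, and Mir341, Mir134 and Mir667 belong to the imprinted cluster on chromosome 12. Of these 10 genes, only Mir341 passed in a comparison. Mir692-1 read 10.86, 10.12 and 10.09 in KO, 10.36, 10.18 and 10.38 in HET, and 10.28, 10.26 and 10.34 in WT yolk sacs, with KO 1 above all other arrays.

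The hairpins best known from yolk sac blood and vessels were among the dim ones, named here after their values were seen. Mir144, from the erythroid locus that also holds Mir451a, lay between 2.89 and 3.03 in KO, 2.80 and 2.89 in HET, and 2.89 and 3.05 in WT yolk sacs. Mir451a, whose hairpin is cut by Ago2 rather than Dicer1, lay between 4.07 and 4.16 in KO, 4.16 and 4.17 in HET, and 4.14 and 4.18 in WT. Mir126a, the endothelial microRNA encoded within Egfl7, lay between 3.54 and 3.75 in KO, 3.48 and 3.74 in HET, and 3.29 and 3.50 in WT. All 3 were below the 40th percentile on every array, and this says nothing of their mature strands.

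The level of a hairpin probe set went with its base composition. Over the 258 genes with a RefSeq hairpin, Pearson's r between GC content and mean log2 signal was 0.76, a description across genes whose probe sets share the same 9 arrays. Median GC content was 57.3% for the 65 hairpins above the filter and 45.3% for the 193 dim ones. Between GC content and the KO minus WT difference r was 0.31 over the 258, and for the HET minus WT difference it was 0.51. Hairpins that passed in a comparison had a median GC content of 59.4% (n = 9), against 57.3% for the 65 above the filter. Mir505, Mir15a and Mir30d also passed but had no RefSeq hairpin entry and are not among the 9.

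**Figure D1:**
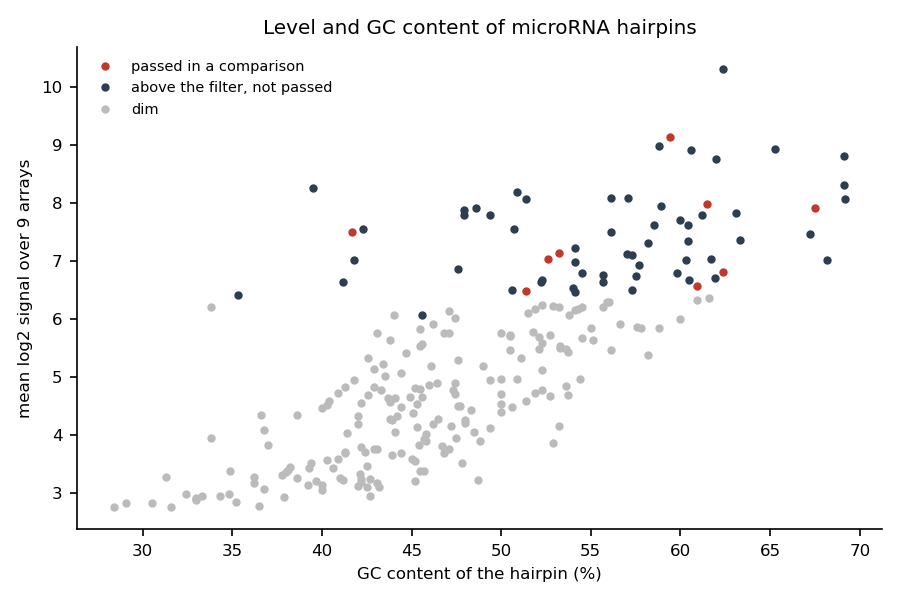
Mean log2 signal over the 9 arrays (y axis) against the GC content of the RefSeq hairpin in percent (x axis) for 258 microRNA genes. Red points passed in a comparison, dark points lay above the filter without passing, and grey points were dim. Most grey points lie at low GC content, and r over all points was 0.76.

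In KO yolk sacs, 11 of the 84 tested microRNA probe sets were higher than in WT, 0 were lower and 73 did not pass. They were Mir505, Mir665, Mir17hg, Mir341, Mir423, Mir15a, Mir673, Mirlet7e, Mir337, Mir7-1 and Mir92b, with folds of 1.38 to 1.88. The test was limma over all 14457 probe sets with 1 gene symbol above the filter, with Benjamini-Hochberg adjustment and a threshold of 0.05. Of all those probe sets, 8.11% were higher and 14.6% lower, and of the microRNA probe sets 13.1% were higher and 0 lower. That 13.1% includes Mir505 and Mir17hg, which were tested only because of their KO arrays. The median KO minus WT difference was 0.24 for the 84 microRNA probe sets and -0.0023 for all tested probe sets, and 79 of the 84 differences were above 0. Without the filter, 21 of all 305 (6.89%) were higher and 0 lower, against 4.42% higher and 7.84% lower among 21780 probe sets. Leaving out KO 1 raised the count of 11 to 24, and leaving out KO 1 and WT 2 raised it to 20.

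All 11 had every KO array above every WT array, a pattern held by 16.1% of all tested probe sets. In 9 of the 11, every KO array also lay above every HET array, as it did in 16.2% of all tested probe sets.

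KO and HET differed in 9 of 84 microRNA probe sets, all higher in KO (10.7%), against 8.31% higher and 12.9% lower among all tested probe sets. Of these 9, 7 were also among the 11 above, and the comparisons share the KO arrays. The other 2 were Mir680-2 and Mir30d. The median KO minus HET difference was 0.06 for the microRNA probe sets and -0.01 for all. Without the filter, 16 of 305 (5.25%) were higher in KO and 0 lower, against 4.31% higher and 7.08% lower among all. With Xist as a covariate 3 passed, and without HET 2 or without KO 2 there were 4.

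HET and WT differed in 0 of 84 microRNA probe sets by limma, where 0 (0%) of all 14457 tested probe sets passed. At an unadjusted p under 0.05 there were 5 microRNA and 376 probe sets in all, and the smallest adjusted p of a microRNA was 0.929. The median HET minus WT difference was 0.17 for the 84 microRNA probe sets and -0.0047 for all, with 76 of the 84 above 0. The smallest unadjusted p values belonged to Mir667, Mir680-2 and Mir150. Mir150, a microRNA of mature lymphocytes, read 7.0, 7.24 and 7.15 in KO, 7.20, 6.96 and 7.29 in HET, and 6.94, 6.58 and 6.97 in WT yolk sacs. Its HET minus WT difference was 0.32 ± 0.12 (SE), its HET and WT arrays overlapped, and the adjusted p by limma was 0.929.

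**Figure D2:**
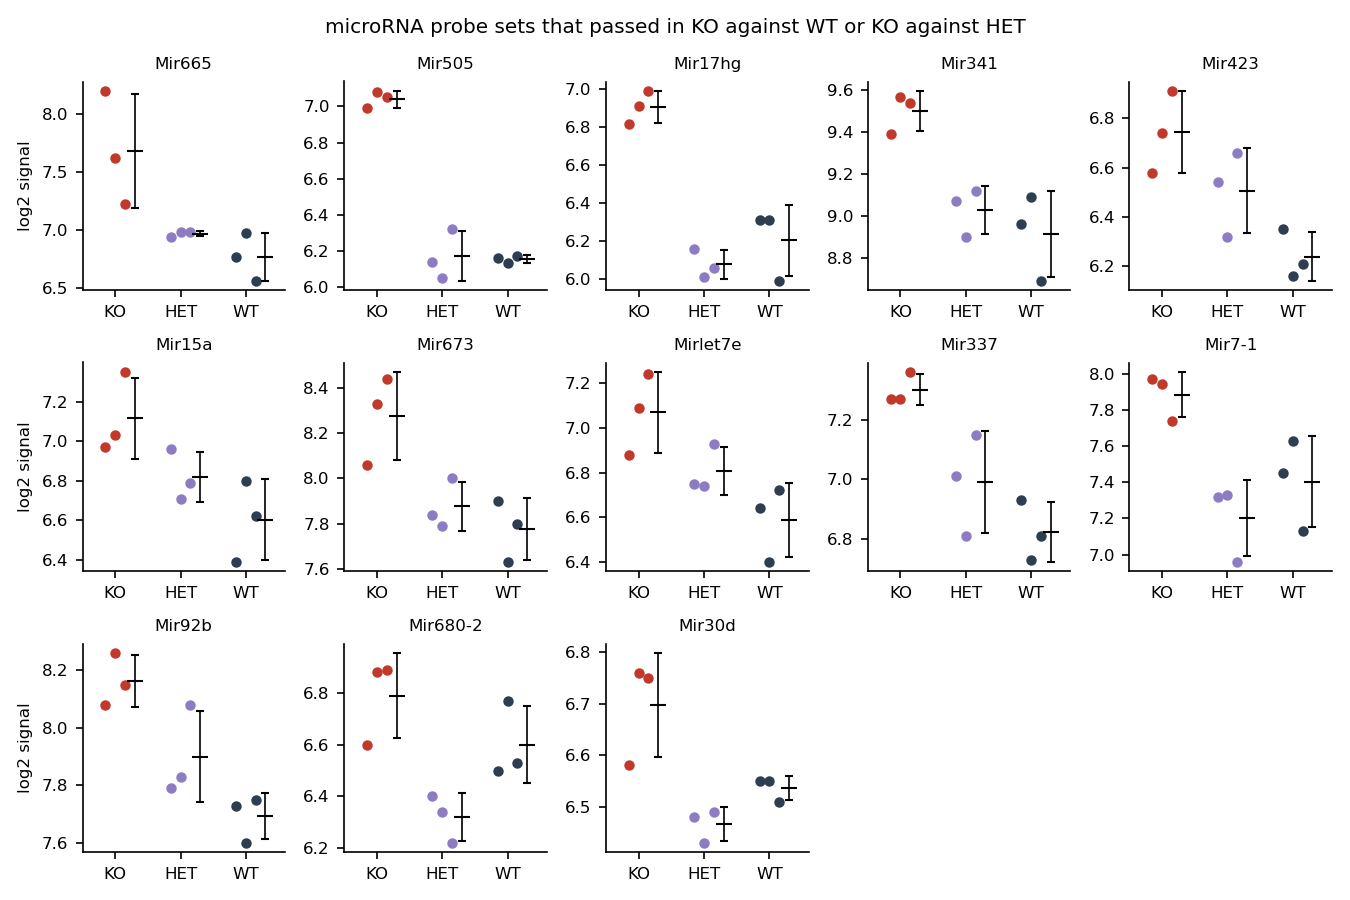
Log2 signal (y axes, each with its own range) of the 13 microRNA probe sets that passed in KO against WT or KO against HET, by genotype. Points are single arrays in the order 1, 2 and 3, and bars show the mean ± SD of 3 arrays. Mir505 and Mir17hg show the widest gap between the KO arrays and all others relative to their spread.

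Mir505, on the X chromosome, read 6.99, 7.08 and 7.05 in KO, 6.14, 6.05 and 6.32 in HET, and 6.16, 6.13 and 6.17 in WT yolk sacs. The 3 KO arrays stood together above all 6 others. The difference was 0.89 ± 0.07 (SE) against WT (limma adjusted p = 0.00119) and 0.87 ± 0.07 against HET (adjusted p = 0.000827), or 1.85-fold and 1.83-fold. With Xist as a covariate the KO minus WT difference was 0.93 and with Eif2s3y 0.89, and both passed. No alternative that tested Mir505 ended either call, with differences of 0.80 to 0.95. Mir505 was tested only because of its KO arrays, so the adjusted p values above depended in part on the difference itself. Fits without a KO array kept the same tested probe sets, so they cannot show whether Mir505 would still have been tested. The fit with no filter did not depend on this, and both calls held in it. The filter at the array median left Mir505 out, since KO 1 and KO 3 lay below 7.07.

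The Mir17 cluster, often called miR-17 to miR-92, is transcribed as 1 host RNA, Mir17hg, and its microRNAs are known to promote proliferation and survival, with targets that include Bcl2l11. Mir17hg read 6.82, 6.91 and 6.99 in KO, 6.16, 6.01 and 6.06 in HET, and 6.31, 6.31 and 5.99 in WT yolk sacs. KO arrays lay above all others, with a difference of 0.71 ± 0.10 (SE) against WT (limma adjusted p = 0.00238) and 0.83 ± 0.10 against HET (adjusted p = 0.00137). These calls held under all alternatives that tested Mir17hg, with KO minus WT differences of 0.60 to 0.80. Like Mir505, Mir17hg was tested only because of its KO arrays, so these adjusted p values depended in part on the difference. Leaving out a KO array did not change which probe sets were tested, and so cannot address this. With no filter, where this limit is absent, both calls held. The filter at the array median left Mir17hg out, since all its arrays lay below 7.07.

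The 5 measured hairpins of the cluster were all dim and below the filter, and they are described from the fit over all 21780 probe sets. Mir17 read 5.45, 5.07 and 5.32 in KO, 4.74, 4.65 and 4.70 in HET, and 4.49, 4.38 and 4.50 in WT yolk sacs. Mir18, the mouse symbol for the miR-18a gene, read 6.84, 6.29 and 6.25 in KO, 5.49, 5.13 and 4.88 in HET, and 5.21, 5.58 and 4.97 in WT. Mir19b-1 read 5.72, 5.17 and 5.26 in KO, 4.20, 4.34 and 4.23 in HET, and 4.11, 4.43 and 4.22 in WT. In each of the 3, every KO array stood above all HET and WT arrays. Among all 21780 probe sets, every KO array lay above every WT array in 13.1% and above every HET array in 11.9%.

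The differences from WT were 0.82 ± 0.09 (SE) for Mir17, 1.21 ± 0.21 for Mir18 and 1.13 ± 0.14 for Mir19b-1, with limma adjusted p of 0.00225, 0.00808 and 0.00293. For Mir18 this is 2.31-fold, the largest fold among the microRNA probe sets that passed. Mir19a read 4.36, 3.91 and 3.80 in KO, 3.54, 3.35 and 3.54 in HET, and 3.51, 3.48 and 3.38 in WT yolk sacs, a difference from WT of 0.57 ± 0.13 (adjusted p = 0.025). Mir20a read 4.72, 4.21 and 3.93 in KO, 3.76, 3.74 and 3.68 in HET, and 3.58, 3.94 and 3.48 in WT, and it did not pass (0.62 ± 0.19, adjusted p = 0.0621). KO 3 and WT 2 overlapped for Mir20a, and KO 1 was the highest array for all 5 hairpins. The values are dim, and leaving out single arrays was not run for these 5 hairpins.

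Of the 5 hairpins, 4 passed against WT and 4 against HET. The same 4 did so in both, in comparisons that share the KO arrays. The related cluster on the X chromosome, which runs from Mir363 to Mir106a and descends from the same ancestral locus, had 5 measured hairpins, all below the filter, of which 0 passed. The third related cluster, Mir25, Mir93 and Mir106b in an intron of Mcm7, had 3 tested hairpins of which 0 passed. Mir106b, which shares its seed with miR-17, read 6.96, 6.67 and 6.50 in KO, 6.26, 6.58 and 6.60 in HET, and 6.15, 6.50 and 6.31 in WT yolk sacs, a difference of 0.39 ± 0.14 (SE, limma adjusted p = 0.0784). Its host Mcm7, a subunit of the replicative helicase, differed by -0.01 ± 0.06.

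**Figure D3:**
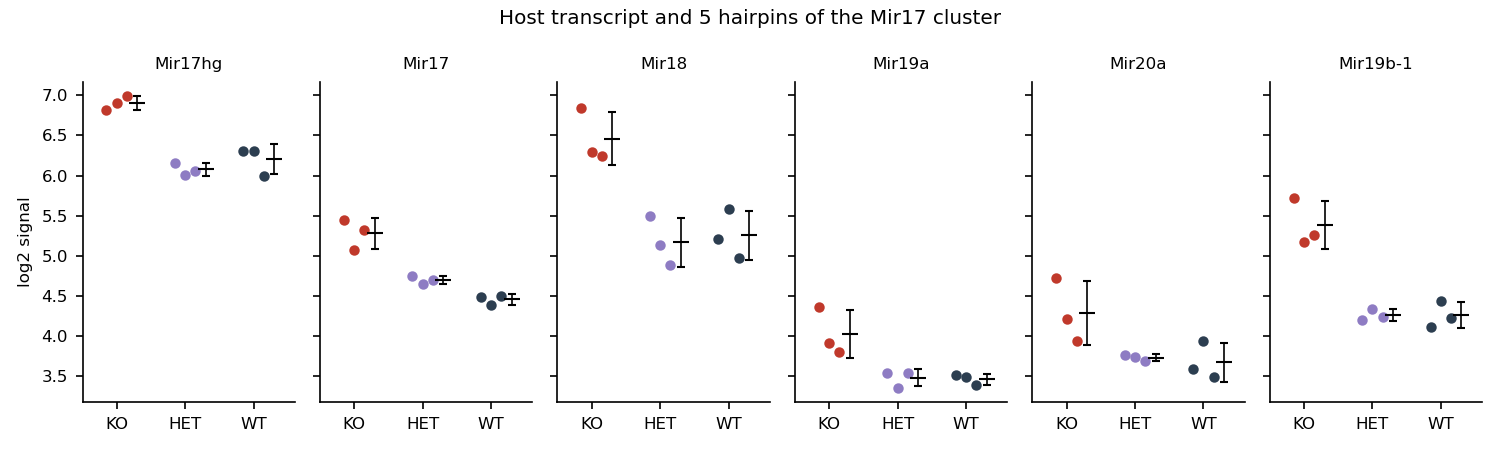
Log2 signal (shared y axis) of the host transcript Mir17hg and of 5 hairpins of the Mir17 cluster by genotype. Points are single arrays and bars the mean ± SD of 3 arrays. KO arrays lie above all HET arrays in the 6 panels, and above all WT arrays in every panel except Mir20a.

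Mir92b, on chromosome 3, carries the seed of the miR-25 and miR-92 family, shared with Mir25. It read 8.08, 8.26 and 8.15 in KO, 7.79, 7.83 and 8.08 in HET, and 7.73, 7.60 and 7.75 in WT yolk sacs. KO arrays lay above the WT arrays, with HET between, and HET 3 reached the level of KO 1. The KO minus WT difference was 0.47 ± 0.09 (SE, limma adjusted p = 0.00792), and KO minus HET, at 0.27 ± 0.09, did not pass (adjusted p = 0.0652). Mir25, of the same seed, differed from WT by 0.13 ± 0.12 (adjusted p = 0.455).

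Mir15a, which together with Mir16-1 lies in the Dleu2 transcript and is known to target Bcl2 and cell cycle genes, read 6.97, 7.03 and 7.35 in KO, 6.96, 6.71 and 6.79 in HET, and 6.39, 6.80 and 6.62 in WT yolk sacs. KO arrays lay above both other genotypes, although KO 1 and HET 1 differed by 0.01. The KO minus WT difference of 0.51 ± 0.13 (SE) passed (limma adjusted p = 0.0240), and the call was lost without WT 1, without WT 3 or without KO 3, with adjusted p up to 0.0836 over all alternatives. The Dleu2 probe set was dim, between 2.77 and 3.07 in KO, 2.76 and 2.83 in HET, and 2.83 and 3.09 in WT. Mir497, which shares the seed of Mir15a, did not pass (0.22 ± 0.17, adjusted p = 0.353).

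The let-7 family restrains growth and is held back in early embryos by Lin28 proteins. Mirlet7e read 6.88, 7.09 and 7.24 in KO, 6.75, 6.74 and 6.93 in HET, and 6.64, 6.40 and 6.72 in WT yolk sacs, with KO above WT on all arrays and overlapping HET. The difference from WT was 0.49 ± 0.11 (SE, limma adjusted p = 0.0169), and it was lost without WT 2 (adjusted p = 0.0563). Its cluster neighbours Mir99b and Mir125a did not pass, at 0.23 ± 0.14 and 0.16 ± 0.16. Spaca6, the gene in whose span on the same strand all 3 lie, was higher in KO (0.39 ± 0.10, adjusted p = 0.0205), a call that ended under 5 alternatives, among them without WT 1 and without WT 3.

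The other let-7 hairpin above the filter, Mirlet7i, read 7.22, 7.41 and 7.60 in KO, 7.21, 7.16 and 7.35 in HET, and 7.13, 6.80 and 7.19 in WT yolk sacs. Its difference from WT was 0.37 ± 0.12 (SE, limma adjusted p = 0.0608). Lin28a differed from WT by 0.06 ± 0.07 and Lin28b by 0.30 ± 0.12, and neither passed in that comparison. Lin28b read 7.92, 7.41 and 7.75 in KO, 7.08, 7.20 and 7.18 in HET, and 7.44, 7.41 and 7.33 in WT yolk sacs, and was higher in KO than in HET (0.54 ± 0.12 SE, limma adjusted p = 0.0123).

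Mir423 and Mir7-1 both lie in introns of widely expressed genes. Mir423 read 6.58, 6.74 and 6.91 in KO, 6.54, 6.32 and 6.66 in HET, and 6.35, 6.16 and 6.21 in WT yolk sacs, with KO above WT on all arrays (0.51 ± 0.11 SE, limma adjusted p = 0.0124). Its host Nsrp1, a splicing regulator, differed by 0.06 ± 0.07 (adjusted p = 0.553). Mir7-1 read 7.97, 7.94 and 7.74 in KO, 7.32, 7.33 and 6.96 in HET, and 7.45, 7.63 and 7.13 in WT yolk sacs, with HET the lowest genotype.

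The Mir7-1 difference was 0.68 ± 0.14 (SE) against HET (limma adjusted p = 0.0118) and 0.48 ± 0.14 against WT (adjusted p = 0.0416). The call against WT was lost under 11 of the alternatives, 6 of them single arrays left out, with adjusted p up to 0.11. The call against HET was lost with Xist as a covariate (adjusted p = 0.0898). Its host Hnrnpk, an RNA-binding protein, differed from WT by 0.01 ± 0.06 (adjusted p = 0.878). That value comes from the Hnrnpk probe set with the highest mean, and where it lies in the genome was not checked. Hnrnpk lay at 12.27 to 12.39 in KO and 12.28 to 12.32 in WT yolk sacs, and the gap between a hairpin's difference and its host's was not itself tested.

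For 3 further hairpins, chosen outside the naming rule given below, the values of the hairpin and of the gene around it were as follows. Mir185 did not pass (0.20 ± 0.10 SE, limma adjusted p = 0.183), while its host Tango2 was lower in KO, at 10.08, 9.93 and 9.65 against 10.69, 10.73 and 10.54 in WT yolk sacs (-0.77 ± 0.11, adjusted p = 0.00293). Mir149 lies in the span of Gpc1, a heparan sulfate proteoglycan gene whose strand the tables used do not give. Gpc1 was higher in KO (0.70 ± 0.12, adjusted p = 0.00464), and Mir149, with a difference of the same sign, did not pass (0.37 ± 0.17, adjusted p = 0.15). Mir483, in an intron of Igf2, read 7.83, 8.32 and 8.32 in KO and 7.84, 7.46 and 7.85 in WT, overlapping by the KO 1 array, and did not pass (0.44 ± 0.17, adjusted p = 0.0957). Igf2, which encodes a fetal growth factor, did not pass either (0.14 ± 0.05, adjusted p = 0.0849). Other genes around tested hairpins were lower in KO than in WT too. They were Pde2a (-0.33 ± 0.07, adjusted p = 0.0104), whose hairpin Mir139 did not pass, and Nup93 (-0.24 ± 0.06, adjusted p = 0.0172). Ank1, whose strand is not given either, was also lower (-0.59 ± 0.18, adjusted p = 0.0464).

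The members passing against HET alone were Mir680-2 and Mir30d. Mir680-2, on the X chromosome, read 6.60, 6.88 and 6.89 in KO, 6.40, 6.34 and 6.22 in HET, and 6.50, 6.77 and 6.53 in WT yolk sacs, with HET below both other genotypes. The difference was 0.47 ± 0.10 (SE) against HET (limma adjusted p = 0.0141), and the call ended with Xist (adjusted p = 0.131) or Eif2s3y as a covariate. Mir30d read 6.58, 6.76 and 6.75 in KO, 6.48, 6.43 and 6.49 in HET, and 6.55, 6.55 and 6.51 in WT yolk sacs, a difference from HET of 0.23 ± 0.06 (adjusted p = 0.0309). That call was lost under 12 alternatives, among them no filter and each HET array left out. Mir680-3, which encodes the same mature sequence as Mir680-2 from chromosome 12, did not pass against HET (0.22 ± 0.13, adjusted p = 0.265).

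The Dlk1-Dio3 domain on chromosome 12 is imprinted. Its microRNAs and the long noncoding RNAs Meg3, Rian and Mirg are expressed from the maternal chromosome, and Dlk1, Rtl1 and Dio3 from the paternal one. It held 40 of the microRNA probe sets, 21 of them tested, and 4 of the 21 were higher in KO than in WT yolk sacs, against 8.11% of all tested probe sets. Those 4 all lay between Meg3 and the Mir379 group. With gaps of at most 10 kb between neighbours, the domain split as follows. A group of 8 hairpins in the RefSeq span of Rtl1 had 6 tested and 3 higher. A pair within Rian had 1 tested and higher, and a group of 30 from Mir379 on had 14 tested and 0 passing.

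Near Rtl1, Mir665 read 8.20, 7.62 and 7.22 in KO, 6.94, 6.98 and 6.98 in HET, and 6.77, 6.97 and 6.56 in WT yolk sacs. All KO arrays lay above all others, but the 3 spanned a wide range, with KO 1 far above KO 3. The difference was 0.91 ± 0.21 (SE) against WT (limma adjusted p = 0.0167) and 0.72 ± 0.21 against HET (adjusted p = 0.0426). The call against WT ended without WT 1 or WT 3 (adjusted p up to 0.0534), and that against HET under 11 alternatives.

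Mir673 read 8.06, 8.33 and 8.44 in KO, 7.84, 7.79 and 8.0 in HET, and 7.90, 7.63 and 7.80 in WT yolk sacs, a difference from WT of 0.50 ± 0.11 (SE, limma adjusted p = 0.0141) that was lost without WT 2 (adjusted p = 0.0519). Mir337 read 7.27, 7.27 and 7.36 in KO, 7.01, 6.81 and 7.15 in HET, and 6.93, 6.73 and 6.81 in WT, a difference of 0.48 ± 0.09 (adjusted p = 0.0084) that held under all alternatives tried. In both, every KO array lay above every HET and WT array. Against HET, Mir673 differed by 0.40 ± 0.11 (adjusted p = 0.0337) and Mir337 by 0.31 ± 0.09 (adjusted p = 0.0429), calls lost under 7 and 11 alternatives.

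Of the 3 other tested hairpins near Rtl1, Mir540 differed from WT by 0.13 ± 0.09 (SE), Mir431 by 0.27 ± 0.16 and Mir127 by 0.08 ± 0.26, and none passed by limma (adjusted p of 0.294, 0.264 and 0.837). Mir127 pairs fully with the Rtl1 messenger RNA, as known in mouse, and read 8.06, 8.34 and 7.91 in KO, 8.43, 7.98 and 8.06 in HET, and 8.06, 8.57 and 7.43 in WT yolk sacs. Rtl1 differed by 0.02 ± 0.06. The genotypes overlapped for all 4 of these probe sets.

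Mir341, within Rian, read 9.39, 9.57 and 9.54 in KO, 9.07, 8.90 and 9.12 in HET, and 8.96, 9.09 and 8.69 in WT yolk sacs. KO arrays lay above all others, by 0.59 ± 0.11 (SE) against WT (limma adjusted p = 0.0069) and 0.47 ± 0.11 against HET (adjusted p = 0.0166). The call against WT held under all alternatives tried, and that against HET was lost without HET 2, without KO 2 and with Xist as a covariate.

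Of the long transcripts, Meg3 read 11.56, 11.42 and 11.09 in KO, 10.90, 10.79 and 10.73 in HET, and 10.65, 10.89 and 9.83 in WT yolk sacs, higher in KO by 0.90 ± 0.24 (SE, limma adjusted p = 0.0278). Without WT 1, KO 1 or KO 2 that call was lost, with adjusted p of 0.052, 0.061 and 0.0767. Rian read 8.40, 8.39 and 7.83 in KO, 7.83, 7.65 and 7.23 in HET, and 7.83, 8.25 and 6.52 in WT, and did not pass (0.67 ± 0.39, adjusted p = 0.243). WT 3 was the lowest array for both. Of the paternally expressed genes, Dlk1 differed by -0.12 ± 0.07 and Dio3 by 0.47 ± 0.30, and neither passed. Dio3 read 7.63, 7.63 and 8.91 in KO, 7.63, 7.72 and 7.46 in HET, and 7.52, 7.80 and 7.46 in WT yolk sacs, and without KO 3 its difference was 0.04.

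In the Mir379 group, differences of the 14 tested hairpins ran from -0.56 to 0.35, and the lowest adjusted p was 0.056, for Mir667. Mir667 read 8.74, 8.98 and 8.79 in KO, 8.85, 8.77 and 8.99 in HET, and 8.65, 8.57 and 8.48 in WT yolk sacs. It was 0.27 ± 0.09 (SE) higher in KO and 0.30 ± 0.09 higher in HET than in WT, without overlap and without passing by limma (adjusted p of 0.056 and 0.929). Mir134, which restrains dendritic spine growth in neurons, read 9.01, 9.21 and 8.86 in KO, 9.08, 8.93 and 8.96 in HET, and 8.95, 9.18 and 8.15 in WT.

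The WT arrays were far apart across this group. WT 3 was the lowest WT array in 27 of the 30 hairpins and WT 2 the highest in 28, and WT 2 was the highest of all 9 arrays in 20. Mir377 shows the spread at its widest, at 7.05, 6.59 and 5.65 in KO, 6.98, 7.16 and 6.45 in HET, and 6.46, 7.79 and 5.66 in WT yolk sacs. Its KO minus WT difference was -0.21 ± 0.52 (SE). Mir329, Mir382 and Mir369 followed the same order of WT arrays, with WT SDs of 0.86, 0.85 and 0.78 (n = 3), against 0.09 for Mir667.

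KO 3 was the lowest KO array in 20 of the 30. Averaged over the 14 tested hairpins of the group, signals were 7.67, 7.63 and 7.24 in KO, 7.71, 7.56 and 7.48 in HET, and 7.43, 7.98 and 6.92 in WT yolk sacs. Over the 7 tested hairpins nearer to Meg3, they were 7.97, 8.13 and 7.98 in KO, 7.78, 7.63 and 7.82 in HET, and 7.67, 7.66 and 7.48 in WT. In the mean of the 7 nearer hairpins, which include the 4 that passed, the KO arrays lay above the HET and WT arrays. Of those 7, Mir540, Mir431 and Mir127 did not pass and overlapped between genotypes, and in the mean of the Mir379 group the genotypes overlapped.

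**Figure D4:**
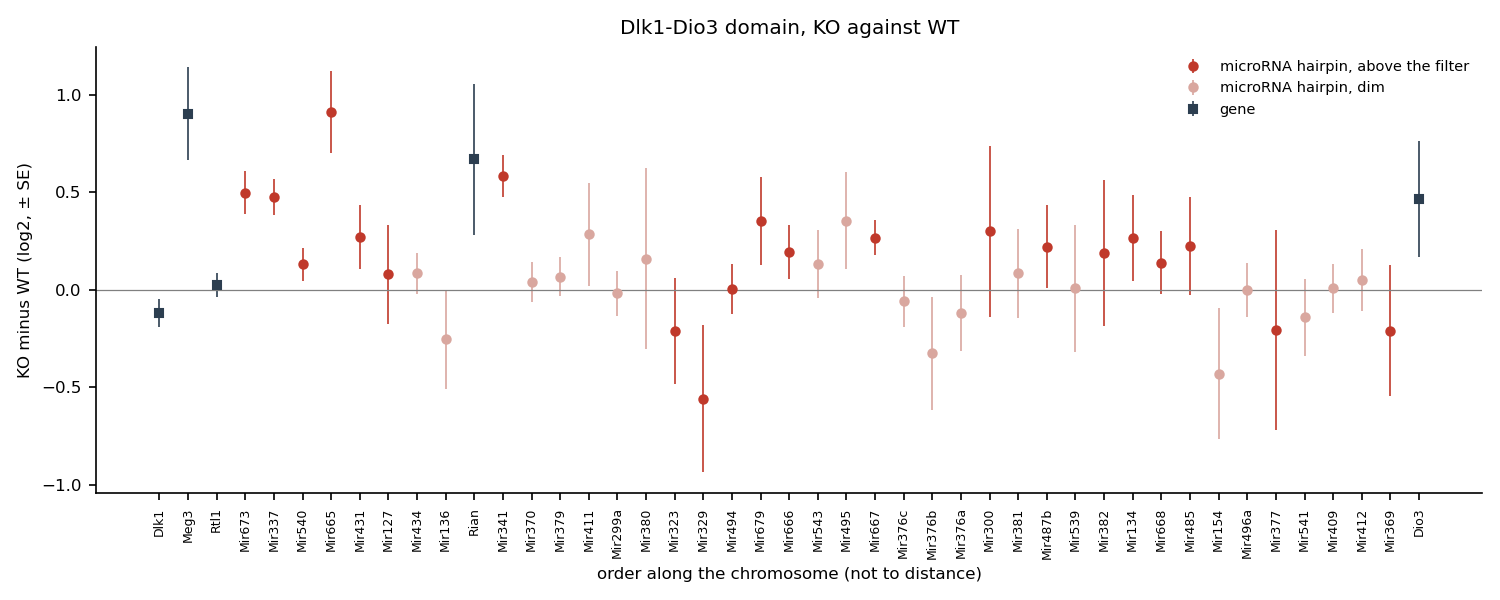
KO minus WT difference in log2 signal (y axis, ± SE from limma) for 40 microRNA probe sets and 5 genes of the Dlk1-Dio3 domain in their order along chromosome 12 (x axis, not to distance). Dark circles lay above the filter, pale circles were dim, and squares are genes. Mir673, Mir337, Mir665 and Mir341 passed, as did Meg3, and 0 hairpins from Mir379 on did so.

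Outside the Mir17 cluster, 7 dim probe sets were higher in KO than in WT yolk sacs in the fit without the filter, and are named after their values were seen. They were Mir3068, Mirlet7d, Mir301b, 1 of 3 probe sets of Mir713, Mir200c, Mir130a and Mir365-1, with differences of 0.47 to 0.82. Mir130a and Mir301b belong to 1 microRNA family. Mir130a read 4.43, 4.39 and 4.39 in KO, 4.20, 4.0 and 4.15 in HET, and 3.89, 3.82 and 4.03 in WT yolk sacs (0.49 ± 0.08 SE, limma adjusted p = 0.00568). Mirlet7d read 6.06, 5.84 and 5.47 in KO, 5.33, 5.16 and 5.33 in HET, and 5.10, 5.11 and 5.27 in WT (0.63 ± 0.14, adjusted p = 0.0178). KO arrays lay above all others in both.

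Mir200c, of the family that restrains Zeb1 and Zeb2 and so the shift of epithelium to mesenchyme, read 5.59, 5.90 and 6.01 in KO, 5.90, 5.61 and 5.92 in HET, and 5.30, 5.19 and 5.38 in WT yolk sacs. KO and HET both lay above WT, by 0.54 ± 0.12 (SE, limma adjusted p = 0.0213) and 0.52 ± 0.12 (adjusted p = 0.869). Only the first passed, and the 2 probe sets of Mir713 that did not pass differed by 0.10 and -0.04.

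Grouped by position, 151 of the microRNA probe sets fell into 47 clusters of at least 2 genes. Outside chromosome 12 and the Mir17 cluster, no cluster had more than 1 passing member. Mirlet7e and Mir15a each passed without a cluster neighbour, as did the dim Mirlet7d, Mir200c and Mir301b. With gaps of up to 50 kb, there were 52 clusters with 166 probe sets, and the Rtl1 and Rian groups merged into 1 group of 10.

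MicroRNA signals also moved together from array to array within a genotype. Of the 61 tested probe sets outside chromosome 12, WT 2 was the lowest WT array in 53 and KO 1 the lowest KO array in 56. Median signal over the 84 tested probe sets was 7.28, 7.59 and 7.60 in KO, 7.31, 7.29 and 7.47 in HET, and 7.26, 7.12 and 7.16 in WT yolk sacs. Probe sets of olfactory receptors, which serve the sense of smell, had medians of 4.26, 4.41 and 4.39 in KO, 4.37, 4.29 and 4.43 in HET, and 4.30, 4.20 and 4.29 in WT. KO 1 and WT 2 were the lowest arrays of their genotypes in both. With the olfactory receptor median as a covariate, a choice made after the data were seen, 12 microRNA probe sets passed against WT and 15 against HET, where 11 and 9 did without it.

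**Figure D5:**
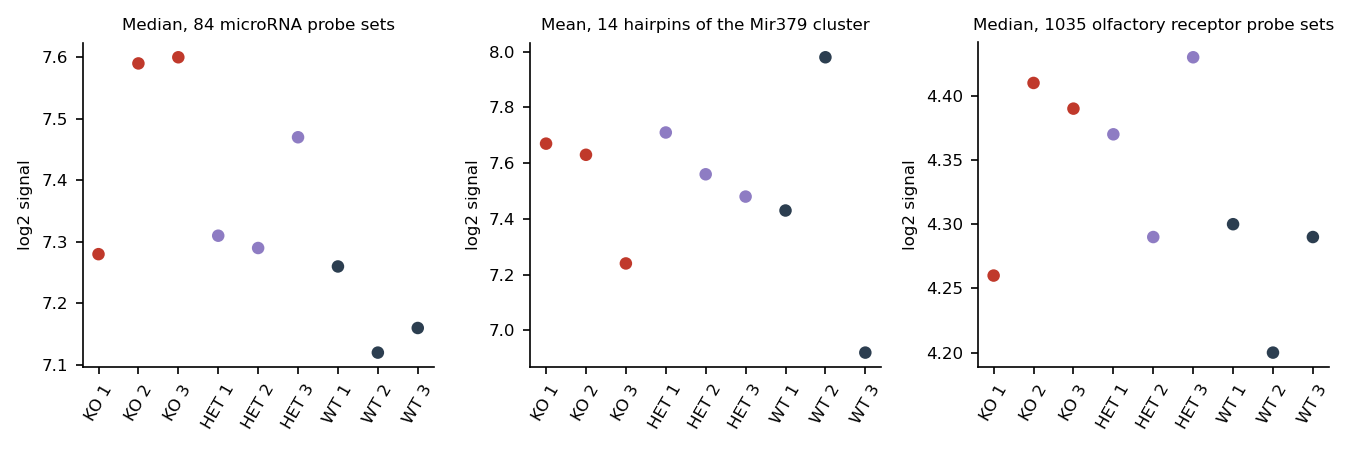
Log2 signal (y axes, each with its own range) by array, with KO in red, HET in violet and WT in dark blue. Left, the median of the 84 tested microRNA probe sets; middle, the mean of the 14 tested hairpins of the Mir379 group; right, the median of 1035 olfactory receptor probe sets. KO 1 and WT 2 are the lowest of their genotypes on the left and right, while WT 2 is the highest array in the middle.

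Genes of microRNA processing and action were read from a list of 28. Of these, 27 were tested, and in KO against WT yolk sacs 3 were higher, 4 lower and 20 did not pass by limma, with a median difference of 0.07 (all tested probe sets, -0.0023, of which 22.7% passed in either direction). Drosha differed by 0.05 ± 0.08 (SE), Dgcr8 by -0.06 ± 0.09, Xpo5 by 0.02 ± 0.05 and Dicer1 by 0.07 ± 0.06. The 3 that were higher were Srrt, which brings primary transcripts to Drosha (0.26 ± 0.05, adjusted p = 0.00626), the RNA editing enzyme Adar (0.36 ± 0.08, adjusted p = 0.0128) and the Argonaute partner Tnrc6c (0.33 ± 0.08, adjusted p = 0.0235). The counts take, for each gene, the probe set with the highest mean. For Tarbp2, a Dicer partner, that probe set did not pass (0.16, adjusted p = 0.0874), and a second one was higher in KO, at 9.19, 9.15 and 9.16 in KO and 8.91, 8.81 and 8.95 in WT yolk sacs (0.28 ± 0.05, adjusted p = 0.0090). The second probe sets of Ago2 (0.27, adjusted p = 0.0906) and Ddx5 (0.04, adjusted p = 0.648) did not pass.

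Among all tested probe sets, 8.11% were higher and 14.6% lower. The 4 pathway genes that were lower belong to the 8 listed for let-7 control and turnover. They were the uridylyltransferase Tut7 (-0.35 ± 0.08 SE, limma adjusted p = 0.0137), the exonuclease Xrn2 (-0.29 ± 0.07, adjusted p = 0.0201), Tsn, a part of the C3PO endonuclease (-0.30 ± 0.08, adjusted p = 0.0227), and Dis3l2, which degrades uridylated let-7 precursors (-0.30 ± 0.09, adjusted p = 0.0424). The 4 others of the 8, Lin28a (0.06), Lin28b (0.30), Tut4 (0.11) and Tsnax (-0.11), did not pass. Without WT 1 or without WT 2 only 2 of the 27 passed. Srrt passed under all alternatives, whereas Dis3l2 was lost under 11 of them.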

How the data were processed

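The authors deposited 1 table of log2 signals per probe set, which the submitters' processing notes credit to RMA in Affymetrix Expression Console 1.2.1.20. No build for the array is named there. RMA sets each array to a common distribution, so a change in the total amount of RNA would not show. All 9 columns were used (0 left out), and 58.0% of microRNA probe sets, against 47.2% of all, held a value repeated between arrays. Of the 28350 probe sets, 21780 named 1 gene symbol, 1618 several and 4952 none. No file gives a depth, and the number of arrays limits the precision.

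Probe sets with 1 symbol above the 40th percentile on at least 3 of 9 arrays entered 1 model of the 3 genotypes in limma 3.58.1 (R 4.3.3, lmFit and eBayes), with Benjamini-Hochberg adjustment over the 14457 tested and a threshold of 0.05. The procedure was checked on simulated data with independent noise for each probe set and array. That simulation held no signals moving together from array to array, as the microRNA signals did. Differences are log2, with limma standard errors. Clusters are RefSeq microRNA genes on 1 strand with gaps of at most 10 kb. Text names every microRNA probe set that passed, the 10 brightest, the 3 with the smallest unadjusted p for HET against WT, their tested cluster neighbours and host genes, and a list of pathway genes. Some further hairpins, Mir185, Mir149 and Mir483 among them, were named outside this rule. For host genes, the probe set with the highest mean was used. The members and all lists were chosen with earlier results of these data known. Alternatives were a filter at the array median or none, 1 probe set per gene, centred or quantile-normalized arrays, another prior, the replicate number as a block, Xist or Eif2s3y as a covariate, each array left out, and WT 2 with KO 1 left out.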

Additional observations from a re-analysis of the deposited data

Results flagged for a closer look

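Among the 61 probe sets that name a microRNA together with another gene, and so entered no test, 4 had every KO array above all HET and WT arrays. Over the 21780 probe sets with 1 gene symbol, without the filter, every KO array lay above every WT array in 13.1% and above every HET array in 11.9%. The probe set naming Mir92-1 and Mir17hg read 6.38, 6.01 and 6.26 in KO, 5.53, 5.15 and 5.52 in HET, and 5.19, 5.27 and 5.25 in WT yolk sacs, a KO minus WT difference of 0.98. It joins the last hairpin of the Mir17 cluster to the host transcript described above. The 3 probe sets naming Mir682 and the ribosomal protein gene Rpl37a had KO minus WT differences of 0.22, 0.21 and 0.23, and their signal cannot be assigned to the microRNA. These 4 of the 61 were read from the arrays without a test.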

How the results depend on the processing

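The KO against WT count of 11 became 21 with no filter and 20 with WT 2 and KO 1 left out, and it ran from 8 to 24 with single arrays left out, 24 without KO 1. The KO against HET count of 9 became 16 with no filter, 5 with a filter at the array median, 5 with Eif2s3y, 3 with Xist and, chosen after the data were seen, 15 with the olfactory receptor median as a covariate. It ran from 4 to 9 with single arrays left out. HET against WT gave 0 throughout. The pathway count of 7 became 13 with quantile normalization and 4 with Xist, and it ran from 2 to 8 with single arrays left out. Deviations from the genotype mean correlated at -0.264 to 0.43 between same-numbered arrays and at -0.594 to 0.421 between the others. The labels do not say whether the replicate numbers pair the arrays. With the number as a replicate block, 15 passed for KO against WT, 8 for KO against HET, 0 for HET against WT and 7 in the pathway list.

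Of 1022 alternatives for 52 named differences, 911 kept direction and call, 67 lost the call, 12 gained it and 32 turned the sign. An alternative was counted only where its fit held the probe set. None of the 391 alternatives of the 20 passed differences turned the sign. The turned KO minus WT differences were all of probe sets that did not pass. With the olfactory receptor median as a covariate they were -0.02 for Mir431, 0.04 for Mir323, -0.03 for Mir666, 0.51 for Mir377, 0.18 for Mir369, -0.01 for Mir99b, -0.11 for Mir125a, -0.05 for Mir139, -0.07 for Mir210 and -0.02 for Mir328. With WT 2 and KO 1 left out they were 0.10 for Mir323, 0.06 for Mir377, 0.09 for Mir369 and -0.21 for Mir692-1. Mir377 was 0.01 with Eif2s3y, Mir494 was -0.06 with centred and -0.08 with quantile-normalized arrays, and Mir692-1 was -0.01 with centred arrays. With single arrays left out, differences that turned ran from -0.21 to 0.35 for Mir127, -0.04 to 0.48 for Mir134, -0.06 to 0.79 for Mir300, -0.48 to 0.17 for Mir323, -0.59 to 0.19 for Mir369, -0.70 to 0.37 for Mir377, -0.24 to 0.60 for Mir382, -0.09 to 0.49 for Mir485, -0.15 to 0.12 for Mir494, -0.04 to 0.33 for Mir668 and -0.19 to 0.19 for Mir692-1. Most of these turns came without WT 2 or without WT 3. The cause of these shifts was not tested.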
